A study of Danio rerio with 6 samples.

Results

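The genes described here are 4 keratins, krt8, krt18a.1, krt97 and krt17, and the S100-type gene icn (ictacalcin), 5 genes whose transcripts are known from epithelia, measured in whole brains of aged female zebrafish. They were taken by gene name from the array's target list, a target being a transcript covered by up to 3 probes. Each gene had 1 target with 3 probes, so the set holds 5 of 38489 targets and 15 of 113549 probes. The symbols krt8 and icn stand in the files as such, krt18a.1 and krt17 were matched through RefSeq synonyms of the symbols in the files, and krt97 through its RefSeq accession. The fish were AB-strain females aged 12 months, and each array holds 1 brain. As embryos, 3 fish had been held in lead acetate at 100 ppb and 3 control fish at 0 ppb, in each case from under 2 hours to 72 hours after fertilization, and all were then raised in water without added lead. The labels give no pooling of animals and no genetic alteration, and males of the same study were not analysed here.

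Keratins are the intermediate filament proteins of epithelial cells, and their filaments are built from many pairs of 1 type I and 1 type II chain. In simple, single-layered epithelia the usual pair is keratin 8 (type II) with keratin 18 (type I), whereas stratified skin uses other keratins. In fish, keratins are also known from cells that are not epithelial, such as fibroblasts and, in goldfish, the glia of the optic nerve. Neurons and most glia use other filaments, such as neurofilaments and the glial protein Gfap. Ictacalcin belongs to the S100 family of small calcium-binding proteins and was described in catfish as a protein of epithelia such as those of gill and barbel. A dissected brain can carry epithelium of the choroid plexus, the ependyma and the pituitary, and it holds vessels and meninges. In such bulk RNA, a difference in the number of cells of a type and a difference in RNA per cell cannot be told apart.

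Values are the authors' RMA target intensities on a linear scale, and differences are lead minus control of their log2. Signal was read against 27114 random-sequence control probes per array, whose 95th percentile lay between 948 and 1312. Between 59.8% and 66.7% of all targets lay above that level, and the median target intensity was 2100 to 2211. Of the brain markers listed, the neuronal genes snap25a and syt1a and the glial gene gfap were measured, and each lay above it on all 6 arrays. Lead and control arrays also differ in the crop number of their images, 7 to 9 for lead and 10 to 12 for control, so crop number and group cannot be told apart. Whether the crop number marks a place in the scan is not stated. Intensities of different targets depend on their probes, so they are not read as amounts of RNA to be compared between genes. A high mean intensity served only to choose genes to name, and summed intensities compare the same genes between brains.

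The genes krt8, krt18a.1 and icn were well above background in every brain. The type II keratin gene krt8 (target OTTDART00000026926, chromosome 23, 5038990 to 5043652) had intensities of 34194, 19603 and 18182 in control replicates 1, 2 and 3, and lead replicates 1, 2 and 3 had 26324, 14303 and 21219. Its partner gene krt18a.1, a type I keratin (OTTDART00000026923, chromosome 23, 5137215 to 5141118), had 19257, 9647 and 9280 in controls, against 15573, 7935 and 9809 after lead. Both were highest in control replicate 1, next in lead replicate 1 and lowest in lead replicate 2, and in neither did the groups separate. For icn (OTTDART00000026601, chromosome 16, 17474063 to 17475426) the controls stood at 22473, 10491 and 8663 and lead brains at 14662, 7732 and 10793. The same brains were at the top and the bottom, and the ranges of the groups again overlapped. Coordinates are those of the files, whose assembly is not given in the sources used here.

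The remaining keratin genes were nearer to background. The type I gene krt97 (NM_001002383, chromosome 22, 9347717 to 9350766) had control intensities of 2625, 1660 and 3085, and the lead brains had 1216, 1783 and 1904. Control replicate 3 was highest, and lead replicate 1 was lowest and lay under the random probes of its array. For krt17, also a type I keratin (OTTDART00000016877, chromosome 19, 1919807 to 1921847), the controls stood at 1167, 1275 and 1545 and the lead brains at 959, 1027 and 1190. Only 1 of the 3 lead arrays, lead replicate 3, lay above the random probes for krt17, as did all 3 controls. Between the groups, lead replicate 3 exceeded control replicate 1, so they overlapped. The files list 32 transcript clusters for the krt17 target, some of which they also list for targets of cyt1l, krt5, krt91 and krt92. Signal of krt17 may therefore include that of near relatives. The krt8 target lists 7 clusters, of which some are shared with krt5, and krt97 lists none. The targets of krt18a.1 and icn share none with the measured targets of the other listed keratin and S100 genes. The listed genes krt18a.2 and icn2 were not measured under a name, so sharing with them could not be seen.

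**Figure D1:**
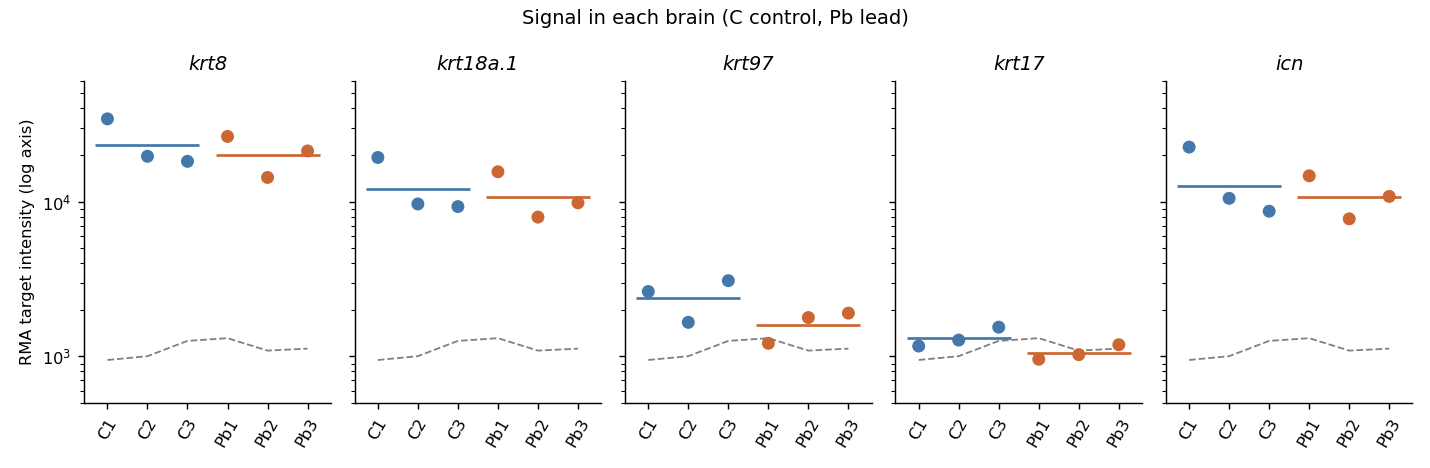
RMA target intensity (log axis) of each gene in the 6 brains, with controls in blue and lead brains in orange. Horizontal lines are the geometric means of each group, and the dashed line is the 95th percentile of the random probes of each array. The genes krt8, krt18a.1 and icn lie far above the dashed line in all brains, krt97 crosses it in lead replicate 1, and krt17 lies close to it throughout.

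No member differed between lead and control brains beyond the spread between brains. The log2 difference of krt8 was −0.20 ± 0.31 (SE, n = 3 brains per group; 95% interval −0.95 to 0.54; limma adjusted p = 0.970), from means of 14.49 ± 0.50 (SD, n = 3) in controls to 14.29 ± 0.45 in lead brains. That of krt18a.1 was −0.17 ± 0.36 (interval −1.02 to 0.68; limma adjusted p = 0.979). For icn it was −0.25 ± 0.39 (interval −1.18 to 0.69; limma adjusted p = 0.971). As ratios of lead to control, the intervals ran from 0.519 to 1.45 for krt8, from 0.495 to 1.60 for krt18a.1 and from 0.442 to 1.61 for icn, so 3 brains per group place wide bounds on any difference. The estimates for the skin keratins were larger relative to their error. For krt97 the difference was −0.57 ± 0.28 (interval −1.23 to 0.090; unadjusted p = 0.0807, limma adjusted p = 0.958), from 11.22 ± 0.46 to 10.65 ± 0.35. For krt17 it was −0.32 ± 0.16 (interval −0.70 to 0.055; unadjusted p = 0.0826, limma adjusted p = 0.958), from 10.37 ± 0.21 to 10.04 ± 0.16.

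All 5 estimates were below 0, none had an unadjusted p under 0.05 in limma and in none did the groups fail to overlap. Over all 38489 targets, 0.0% passed at an adjusted p under 0.05, 4.41% had an unadjusted p under 0.05 (1.83% lower and 2.57% higher in lead brains) and 9.49% had groups that do not overlap (3.75% lower and 5.74% higher in lead brains). The downward estimates of krt8, krt18a.1 and icn rested on single brains. Without control replicate 1 they were 0.083 for krt8, 0.17 for krt18a.1 and 0.17 for icn. Without lead replicate 2 they were 0.038 for krt8 and 0.044 for krt18a.1. For krt97 and krt17 the sign held without each of the 6 brains in turn, at −0.83 to −0.37 and −0.41 to −0.21. Without control replicate 2, krt97 had an unadjusted p of 0.0133 and a limma adjusted p of 0.502. None of the 5 targets, and no keratin or S100 target, is among the 94 entries of the authors' deposited table of altered targets.

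**Figure D2:**
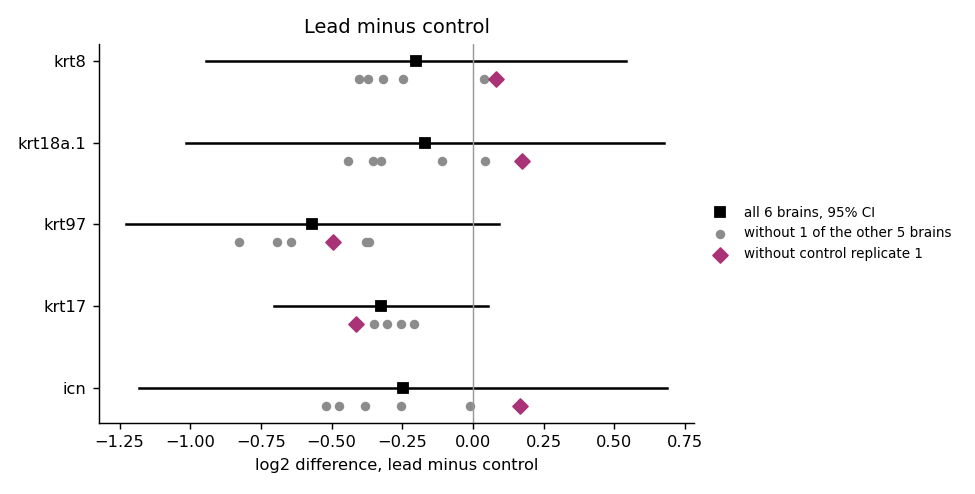
Log2 difference, lead minus control, of each gene with its 95% interval (black), and the same difference with 1 of the 6 brains left out (grey circles, and purple diamonds for control replicate 1). All 5 intervals include 0, and leaving out control replicate 1 puts krt8, krt18a.1 and icn above 0.

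The genes krt8, krt18a.1 and icn ordered the 6 brains alike, and krt97 and krt17 ordered them in other ways. Over the 6 brains, krt8 ranged over 2.39-fold, krt18a.1 over 2.43-fold and icn over 2.91-fold. Among targets above the random probes on all arrays, 6.69%, 6.35% and 3.16% ranged at least as widely. The order from high to low was identical for these 3 genes, namely control replicate 1, lead replicate 1, lead replicate 3, control replicate 2, control replicate 3 and lead replicate 2. For comparison, gene-named targets above the random probes on all arrays with a range of at least 1 log2 unit were taken. Names found only in the array's own annotation, with no match in the reference names, were left out. Of these 1104 targets 25, or 2.26%, showed this order, these 3 genes and krt18b among them. The rest were not keratin or S100 genes, and included slc1a3a, plp1b, tagln3b, ndrg1a and fn1b, so the order was not particular to epithelial genes. In control replicate 1 the deviation from the 6-brain mean was 0.67 for krt8, 0.77 for krt18a.1 and 0.95 for icn, and in lead replicate 2 it was −0.58, −0.51 and −0.59. The range of krt97 was 2.54-fold and that of krt17 1.61-fold. Both were highest in control replicate 3, by 0.66 and 0.39, and lowest in lead replicate 1, by −0.68 and −0.30. Lead replicate 1 was thus the second highest brain for krt8, krt18a.1 and icn and the lowest for krt97 and krt17. In that brain both krt97 and krt17 lay under the random probes, which limits this contrast.

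**Figure D3:**
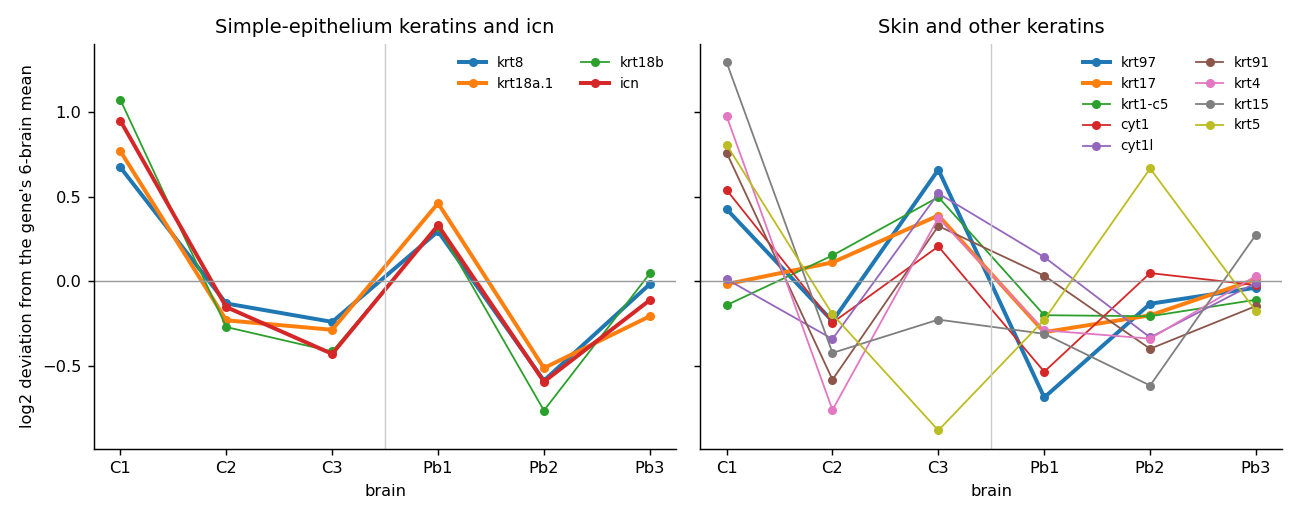
Log2 deviation of each gene from its own 6-brain mean, for simple-epithelium keratins with icn (left) and for skin and other keratins above the random probes on at least 1 array (right). Thick lines are the 5 genes described here. On the left all lines have the same shape, highest in control replicate 1, while on the right the lines differ, with krt97 and krt17 highest in control replicate 3.

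Across the 6 brains krt8, krt18a.1 and icn moved together closely. Pearson's r was 0.967 for krt8 with krt18a.1, 0.982 for krt8 with icn and 0.975 for krt18a.1 with icn, and Spearman's rho was 1 for each. Each r had a p of 0.00139 in an exact two-sided permutation test, the smallest that 6 brains allow, or 0.00463 after Benjamini-Hochberg adjustment over the 10 pairs, and each rho had 0.00278, or 0.00926 adjusted. Members were chosen with earlier results of these data known, so the p-values for pairs of members are a description only. Of the 1104 targets named above, 25 had the order of brains of krt8, krt18a.1 and icn, these included. Without the 2 brains farthest from the median of the first-named gene of each pair, the values of r were 0.951, 0.983 and 0.911. With the group means removed they were 0.968, 0.981 and 0.975. The 6 pairs of 1 of these genes with krt97 or krt17 had r between −0.310 and 0.0338 (exact permutation p = 0.553 to 0.989). With the group means removed these 6 values were all below 0, from −0.177 to −0.668. Without the 2 brains farthest from the median of 1 gene of each pair, they spread from −0.974 to 0.911. The brains left out differed from pair to pair, and over 4 brains the sign of r was not stable. For krt97 with krt17, r was 0.778 (exact permutation p = 0.0625, adjusted 0.156) and rho 0.6 (p = 0.242). That relation rests on control replicate 3 and lead replicate 1, without which r was −0.059.

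Single probes of krt8, krt18a.1 and icn had the pattern of their targets. All 9 of these probes exceeded the random probes on each array, all 9 were highest in control replicate 1, by 0.58 to 0.99 log2 units, and 8 were lowest in lead replicate 2. The exception was probe 2 of krt18a.1, which was lowest in control replicate 3 and was also the only 1 of the 15 probes with a higher mean in lead brains, at 0.071. For krt97 and krt17, 5 of 6 probes were highest in control replicate 3 and 4 of 6 were lowest in lead replicate 1. Of these 6 probes, 1 lay above the random probes on all arrays and 2, namely probe 1 of krt97 and probe 2 of krt17, lay under them on every array. For krt97 probe 2 the controls read 2647, 1674 and 3111 and the lead brains 1482, 1635 and 1920, and this was the probe with the smallest unadjusted p, 0.0860 in limma. Of all 15 probes 0 had an unadjusted p under 0.05, where 4.28% of the array's probes did.

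**Figure D4:**
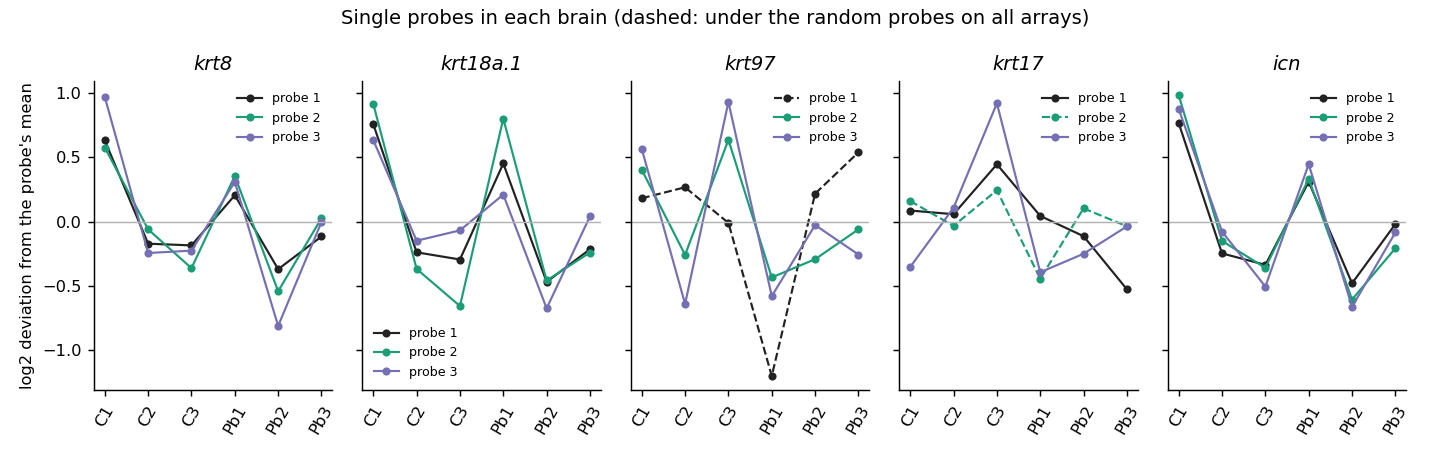
Log2 deviation of each single probe from its own 6-brain mean, 3 probes per gene, with dashed lines for probes under the random probes on all arrays. The 9 probes of krt8, krt18a.1 and icn peak in control replicate 1, and those of krt97 and krt17 diverge.

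Of 24 keratin genes listed 16 were measured under a name, krt8, krt18a.1, krt97 and krt17 included. In limma 0 of these 16 had an unadjusted p under 0.05, beside 4.38% of all 15397 named genes. Without control replicate 2, 3 of the 16 did, or 18.8%, beside 8.19% of all named genes. Estimates were below 0 for 14 of the 16, with a median of −0.23, where 45.5% of all named genes were below 0 and the median was 0.023. Without control replicate 1 the count was 9 of 16, with a median of −0.017. The other simple-epithelium keratin measured, krt18b, a paralogue of krt18a.1, stood at 6161, 2434 and 2202 in controls, against 3670, 1730 and 3030 after lead, and its log2 difference was −0.26 ± 0.45. It had the same order of brains as krt8. Among the 13 skin and other keratins, 11 were lower in lead brains and the median difference was −0.32, or −0.043 without control replicate 1. Both krt97 and krt17 are among the 13, and the median of −0.32 is the value of krt17 itself.

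These 13 genes did not share 1 pattern across brains. Among them krt91 lay above the random probes on all arrays, with controls at 14623, 5781 and 10837 and lead brains at 8843, 6558 and 7812, highest in control replicate 1 and lowest in control replicate 2. Its log2 difference was −0.34 ± 0.33. The surface-skin keratin gene krt4 also exceeded the random probes on each array and read 3716, 1118 and 2451 in controls, against 1548, 1496 and 1933 after lead, so that both its highest and its lowest brain were controls. For krt15 the controls read 3969, 1210 and 1386 and the lead brains 1308, 1059 and 1963, with control replicate 1 standing well above the rest. For krt1-c5, with −0.34 ± 0.18, signal exceeded the random probes in 2 controls and in no lead brain, and the highest brain was control replicate 3, as for krt97 and krt17. For cyt1 the difference at its target with the highest mean was −0.34 ± 0.25, with control replicate 1 highest and lead replicate 1 lowest. A cyt1 target under the random probes on every array had the same highest and lowest brain. Another cyt1 target was lowest in control replicate 1, at −0.26, and a further cyt1 target was highest in control replicate 3, at 0.43. The keratin gene krt5, named for a keratin of the basal skin layer, differed from all of these, with deviations of 0.81 in control replicate 1, 0.67 in lead replicate 2 and −0.88 in control replicate 3. A group of 4 keratins, krt92, krt95, krt99 and krt1-19d, lay under the random probes on every array. By list, the median deviation of the 13 genes was 0.26 in control replicate 1 and 0.22 in control replicate 3, while that of the 3 simple-epithelium keratins was 0.77 and −0.28. Both medians of the 13 genes are the values of krt92, a gene under the random probes on every array. Those of the 3 simple-epithelium keratins are the values of krt18a.1. In control replicate 1, krt91 and krt4 deviated by 0.76 and 0.98, and in control replicate 3 by 0.33 and 0.37. Of the 13 genes, 6 were highest in control replicate 1 and 4, krt97 and krt17 among them, in control replicate 3. The difference between these lists was not tested.

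Of 14 S100 family genes, 8 were measured, icn among them, and 0 passed an unadjusted p of 0.05. The median difference was −0.037, or 0.13 without control replicate 1. The gene s100b, known for its product in glia, stood at 34856, 34498 and 28429 in controls, against 37213, 29398 and 35327 after lead, a much narrower spread than that of icn. For s100s the controls read 38395, 934 and 1215 and the lead brains 1142, 1089 and 1253. For s100t the controls read 33949, 584 and 1065 and the lead brains 1166, 1006 and 1031. Both were thus far above the random probes in control replicate 1 and near or under them elsewhere. For icn too this brain was highest. Further targets of both genes were also highest in that brain but differed in size. A target of s100s read 18530 there and 181 to 314 elsewhere, while another of s100s read 1500 there and 790 to 1002 elsewhere. The further target of s100t read 1086 there and 405 to 722 elsewhere. For icn the fall from the highest to the next brain was smaller, and every brain had signal.

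**Figure D5:**
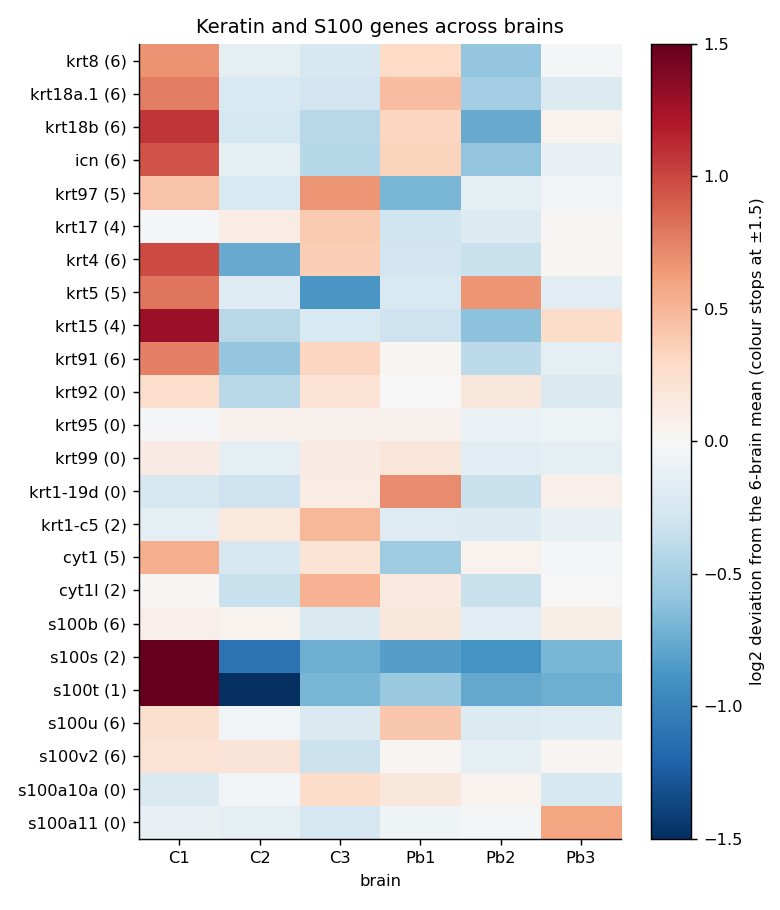
Log2 deviation from the 6-brain mean for the keratin and S100 genes measured (colours stop at 1.5), with the number of arrays above the random probes in brackets. The rows krt8, krt18a.1, krt18b and icn share 1 sequence of colours, and s100s and s100t are high in control replicate 1 alone.

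Other genes of epithelia were described by list. Of 30 junction and desmosome genes 17 were measured, and 10 of these lay under the random probes on every array, including cdh1, the gene of the epithelial cadherin, as well as oclna and cldna. Of the 17, 13 were lower in lead brains and 0 passed an unadjusted p of 0.05 (median −0.078). Without control replicate 1, 5 of the 17 were lower and the median was 0.15. Among its members were perp, a desmosome gene, at −0.022 ± 0.26, and the claudin gene cldn7a, at 0.19 ± 0.62. The controls read 13350, 15835 and 5193 for cldn7a and the lead brains 24033, 5396 and 12568, highest in lead replicate 1. Of 5 measured genes of basal skin and hemidesmosomes, 3 were lower, or 1 without control replicate 1. The integrin genes itgb4 and itga6b were at −0.18 ± 0.52 and −0.15 ± 0.29, and tp63, the regulator of basal skin cells, was at 0.23 ± 0.17.

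Of 8 measured epithelial regulators, 6 were lower, with a median of −0.073. The regulator grhl2a was at 0.91 ± 0.53, with 4023 and 3248 in lead replicates 3 and 2 and 973 to 1709 in the other brains. Of 7 measured genes of surface skin and mucus 5 lay under the random probes on every array, among them agr1 and agr2, which mark mucous cells. The annexin gene anxa1a exceeded them on each array, at 0.051 ± 0.55, and was highest in lead replicate 1. Over the 7 epithelial lists together, 45 of 59 genes were lower in lead brains (median −0.10). In limma 1.69% had an unadjusted p under 0.05, beside 4.38% of all named genes. The 59 include the members and the S100 genes, s100b among them. Under the random probes on every array lay 25 of the 59, beside 3897 of all 15397 named genes. Above them on every array lay 19 of the 59, beside 9285 of all named genes, which limits the count of signs. Without control replicate 1, 24 of the 59 were lower in lead brains and the median turned to 0.077. Without control replicate 2 the share with an unadjusted p under 0.05 was 11.9%. Of these 59 genes 25, or 42.4%, were highest in control replicate 1, as were 20.5% of all named genes.

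Marker lists of other tissues also moved with control replicate 1. Of 13 measured pituitary genes, 10 were highest there, with a median deviation of 1.23 against −0.52 to 0.019 in the other brains. Their summed intensity ranged from 46112 to 137969 over controls, against 45218 to 59004 after lead. The hormone gene smtlb read 32324 in that brain and 235 to 338 in the others, and pomca read 32470 against 3876 to 7922. Of 13 measured vessel and meninges genes, 10 were highest in control replicate 1, with a median deviation of 0.66 against −0.27 to 0.047, and a summed intensity of 81385 to 122764 over controls, against 80741 to 110172 after lead. Those with the highest mean level, slc2a1a and dcn, were not among these 10. They deviated by −0.037 and 0.16 in control replicate 1, and dcn was highest in lead replicate 1, at 0.57. Of 3 measured olfactory and ear genes, otomp read 7565 in control replicate 1 against 1530 to 1961 in the other brains. The gene cldnj deviated by 0.27 in control replicate 1, and oc90 lay under the random probes on every array. In lead replicate 1, the second brain for krt8, krt18a.1 and icn, the median deviation was −0.52 for pituitary and 0.047 for vessel genes. The choroid plexus and ependyma list was highest there, at 0.39, while it stood at −0.26 in control replicate 1. Its summed intensity was 29452 to 42328 over controls, against 32572 to 50498 after lead, with otx2a and msx1b under the random probes on every array. Of this list ttr, kl and clic6 were not measured. Of its 10 measured genes 5 were highest in lead replicate 1, 3 in lead replicate 2 and 2 in control replicate 2. The gene otx2b stood at −0.084 in lead replicate 1, 1.13 in lead replicate 2 and −1.66 in control replicate 1. The part of any of these tissues in the keratin and icn values was not tested. Of 18 other intermediate filament genes, 6 were measured, all above the random probes on every array. Among them synm had the order of brains of krt8. The gene neflb was highest in control replicate 1, at 1.03, and lowest in lead replicate 2, at −1.25, while gfap was highest in lead replicate 1, at 0.56. Of the 6 genes, 2 were highest in control replicate 1 and 4 were lowest in lead replicate 2.

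The genes for krt8 and krt18a.1 lie near each other on chromosome 23, their starts 98225 bases apart, while icn lies on chromosome 16. Targets of krt5 start 75244 to 76442 bases before krt8 and had another pattern, high in control replicate 1 and lead replicate 2. The translation factor gene eif4b, which starts 49038 bases after krt18a.1, stayed within −0.23 and 0.25 of its mean in all brains at its first target. On chromosome 16 the target of snx27b, which starts 64411 bases after icn, stayed within −0.19 and 0.14, and that of slc50a1 lay under the random probes on every array. The target of efna1b, which starts 47855 bases before icn, ran from −0.41 in lead replicate 1 to 0.49 in lead replicate 2. That of adar stayed within −0.12 and 0.10. The krt17 gene lies on chromosome 19 in a run with krt1-19d, krt1-19e, krt92, cyt1l, cyt1 and krt91, whose starts are 42772 bases before to 11165 bases after its own. The gene krt1-19e is not among the 16 keratins counted above, since the list held it under an older symbol. It lay under the random probes on every array, with a log2 difference of −0.041 ± 0.17. Of this run, krt91 deviated by 0.76 in control replicate 1, where krt17 stood at −0.016.

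The genes most like each member over the 6 brains, by Pearson's r among the 1104 targets of 973 genes named above, were as follows. For krt8 these were lpar1 (0.994), the laminin gene lamb1a (0.992), krt18b (0.990), the integrin gene itgb1b (0.989) and slc6a6b (0.987). For krt18a.1 they were itga6b (0.997), the sterol enzyme gene sc5d (0.981), rasl12 (0.979), golim4a (0.978) and flt4 (0.976), a receptor gene of vessels and lymphatics. The gene icn had slc1a3a (0.991), golim4a (0.991), itgb1b (0.990), the fibronectin gene fn1b (0.988) and krt18b (0.987). The names krt18b, itgb1b and golim4a each stand in the lists of 2 of these 3 genes. The list for krt97 was dcc (0.948), LOC100005157 (0.946), lyrm2 (0.921), LRRK1 (0.920) and celsr3 (0.914). That for krt17 was paip2b (0.972), slit1a (0.970), si:ch211-214k5.3 (0.942), hs3st1l1 (0.940) and dixdc1a (0.929). No gene is shared between these lists and those of krt8, krt18a.1 and icn. With Spearman's rho in place of r, 1, 1, 4, 0 and 3 of the 5 names stayed for krt8, krt18a.1, icn, krt97 and krt17. All these points share 6 arrays, and correlations picked as the highest of 1104 are a description only.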

How the data were processed

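RNA of 6 whole brains was hybridised to NimbleGen one-colour (Cy3) arrays, 1 brain per array. The authors deposited, per array, an RMA intensity for each target on a linear scale, made with RMA per the submitters' processing notes (version not stated). The deposited standard error score, named so in the file headers, was not used. Probe intensities and random control probes are in a further deposited table. The authors also deposited a list of altered targets which, per the file headers, gives a fold score, a log2 ratio and a p-value. It was searched here only for the members and the other keratin and S100 targets. The unit of all levels is thus intensity as deposited by the authors, and log2 was taken here with no filter and no added constant.

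All 38489 targets were fitted in R 4.3.3 with limma 3.58.1 (linear model, empirical Bayes, two-sided, Benjamini-Hochberg over all targets, threshold 0.05), and all 113549 probes likewise. The number of arrays limits the precision. Background was the 95th percentile of 27114 random probes per array. Of 38489 targets 21264 were paired with 1 gene name (2663 of 3055 RefSeq targets by a table for assembly GRCz12tu, used for names only). Where a gene had several targets, that with the highest mean stood for it. Of each list, up to 4 genes with the smallest p and 2 with the highest level could be named, and not all of these are. For each member the 5 most alike genes were named. A few other genes (krt4, krt5, krt15, the genes under background, some genes with the order of brains of krt8, the members' neighbours and probes named singly) were chosen after their values were seen. The result of 1 gene of the epithelial lists is not reported here. Members and lists were chosen with earlier results of these data known. Deviations are from a target's own 6-array mean. The tests were tried on simulated data first. Alternatives were a replicate block, other normalizations, summaries, filters and moderation, and each brain left out. Same-numbered control and lead arrays deviated from their group means with correlations of 0.31, 0.03 and −0.05, so the numbers were not taken as pairs. Python 3.11.15, pandas 2.3.3, numpy 2.4.6, scipy 1.17.1 and matplotlib 3.10.9 served for tables, permutation tests and plots.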

Additional observations from a re-analysis of the deposited data

How the results depend on the processing

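Each of the 5 genes was refitted under 13 alternatives, and 60 of the 65 values kept their direction. None passed the threshold in limma or in the ordinary linear model, with adjusted p between 0.502 and 1.00. The 5 that turned were krt8, krt18a.1 and icn without control replicate 1 (0.083, 0.17 and 0.17) and krt8 and krt18a.1 without lead replicate 2 (0.038 and 0.044). With 1 brain left out in turn, the log2 difference spanned −0.40 to 0.083 for krt8, −0.44 to 0.17 for krt18a.1, −0.83 to −0.37 for krt97, −0.41 to −0.21 for krt17 and −0.52 to 0.17 for icn. In a fit with a replicate block the adjusted p was 0.882 for krt8 and 0.850 for krt97 and krt17. The unadjusted p of krt17 was then 0.0494, and the block raised the count of all targets at an unadjusted p under 0.05 from 1696 to 2035. That count spanned 1063 to 3098 with 1 brain left out and 1166 to 2035 otherwise, while 0 targets passed adjustment in any. The median of the skin and other keratins was −0.10 over all targets and −0.043 without control replicate 1. Centring or quantile normalization left all member groups overlapping. Signal near the random probes limits krt97 and krt17.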
